A study of Mus musculus with 4 samples.

Results

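The 10 genes described here are CC chemokine ligands of mouse macrophages: *Ccl2*, *Ccl7*, *Ccl12*, *Ccl3*, *Ccl4*, *Ccl5*, *Ccl6*, *Ccl9*, *Ccl17* and *Ccl22*. They were taken by gene name from an RNA sequencing table of 55356 genes, and all 10 names were found. The table holds 4 libraries of immortalized *MK2*-KO (i*MK2*-KO) bone marrow-derived macrophages, 1 library for each condition. All cells came from *MK2*-KO mice, which lack the protein kinase MK2, and all were transduced with a retrovirus and sorted for GFP. The virus was either an empty *GFP* vector (i*MK2*-KO +*GFP*) or a vector carrying *MK2* (i*MK2*-KO +*MK2*), and the labels give the genotype of the latter as wt. Both lines were either left untreated (UT) or stimulated with recombinant murine IL-1α (5 ng/ml, 1 h). Neither unmodified cells nor wild-type BMDMs were among the libraries, and the sources used here do not say whether a line was a pool or a clone. Of the 4 comparisons described below, 2 set +*GFP* against +*MK2* cells under the same treatment, and 2 set IL-1α against UT within a line. They share libraries, so they are not independent of each other.

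CC chemokines are small secreted proteins that attract leukocytes through G protein-coupled receptors. *Ccl2*, *Ccl7* and *Ccl12* encode monocyte chemoattractants that act on the receptor CCR2, and *Ccl3*, *Ccl4* and *Ccl5* encode inflammatory chemokines that attract monocytes and T cells, of which CCL3 and CCL5 bind CCR1. *Ccl6* and *Ccl9* are rodent genes whose products act on CCR1, and *Ccl17* and *Ccl22* encode ligands of CCR4 that attract T cells. Macrophages make many of these transcripts within minutes to hours of an inflammatory signal such as IL-1, through NF-κB and AP-1. Several chemokine mRNAs carry AU-rich elements in the 3′ untranslated region, to which proteins such as tristetraprolin bind and shorten the life of the mRNA, and MK2 is the kinase known for phosphorylating tristetraprolin.

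The sequences upstream of 3 members on chromosome 11 are shown because these genes lie close together and differed in their values after IL-1α. They are the 250 bases before the RefSeq start of each gene, on the strand of the gene, in GRCm38.p6: *Ccl3* at chr11:83649379-83649628 (minus strand), *Ccl9* at chr11:83578637-83578886 (minus strand) and *Ccl6* at chr11:83593088-83593337 (minus strand). Capitals mark matches to the motifs searched.
Ccl3: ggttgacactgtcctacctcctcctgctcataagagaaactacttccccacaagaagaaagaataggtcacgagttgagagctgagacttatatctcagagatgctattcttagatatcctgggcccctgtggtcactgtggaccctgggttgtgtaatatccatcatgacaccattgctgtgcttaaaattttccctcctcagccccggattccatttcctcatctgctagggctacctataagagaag
Ccl9: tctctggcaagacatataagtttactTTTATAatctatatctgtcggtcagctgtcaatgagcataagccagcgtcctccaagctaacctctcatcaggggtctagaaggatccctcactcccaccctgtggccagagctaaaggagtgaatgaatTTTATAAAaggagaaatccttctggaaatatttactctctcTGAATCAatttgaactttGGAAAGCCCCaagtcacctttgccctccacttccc
Ccl6: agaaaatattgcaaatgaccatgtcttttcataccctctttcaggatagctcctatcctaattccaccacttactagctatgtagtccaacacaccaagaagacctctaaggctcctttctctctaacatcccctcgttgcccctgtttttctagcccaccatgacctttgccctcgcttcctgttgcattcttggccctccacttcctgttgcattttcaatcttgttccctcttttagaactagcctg

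The motifs were searched on both strands of the 250 upstream bases and of 50 bases after the start: the κB consensus of NF-κB, the AP-1 site TGANTCA, the core of the interferon-stimulated response element (ISRE), the STAT site (TTC and GAA with 4 bases between them) and the TATA box TATAAA. Of the 6 members with a RefSeq window (*Ccl3*, *Ccl6*, *Ccl9*, *Ccl12*, *Ccl17* and *Ccl22*), *Ccl9* had a κB match at bases -35 to -26 from the start, on the opposite strand, and an AP-1 match at bases -53 to -47. A κB match was found in 8.46% and an AP-1 match in 7.81% of the 32851 promoter windows of the RefSeq table. *Ccl9* and *Ccl12* held TATAAA, as did 13.6% of all windows, and the *Ccl9* matches around base -92 overlap each other on both strands. *Ccl17* held the STAT letters, which occurred in 6.95% of all windows. The ISRE core was in none of the 6 and in 3.44% of all windows, and *Ccl3*, *Ccl6* and *Ccl22* held none of the 5 motifs. These are matches of letters and not measured binding.

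The 3′ untranslated regions were searched for the core of the AU-rich element, ATTTA in DNA letters. Stretches of 30 bases are shown for 3 members whose values differed between libraries, in GRCm38 coordinates and on the strand of the gene, with the pentamer in capitals. *Ccl3* lies at chr11:83648075-83648104 (minus strand), *Ccl2* at chr11:82037205-82037234 and *Ccl7* at chr11:82047254-82047283 (plus strand).
Ccl3: ttgaaattttATTTAATTTAatcctattgg
Ccl2: taatattaaacttATTTAacttattgatgt
Ccl7: tattaatatttttATTTAattagccatgta

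*Ccl3* held 5 such pentamers in a 3′ untranslated region of 409 bases, and only 1.21% of 2074 genes with a region of like length (0.8 to 1.25 times) held as many. *Ccl12* held 5 in 167 bases, which 0.441% of 1589 genes of like length matched or exceeded. The other members were less dense. *Ccl4* and *Ccl7* held 2 each (12.5% and 19.6% of genes of like length held as many), *Ccl2* held 1 (34.8%), *Ccl6* held 4 (17.4%), *Ccl9* held 5 in 2465 bases (46.8%), *Ccl22* held 2 (73.1%) and *Ccl5* and *Ccl17* held none. The longer motif TTATTTATT was in none of the 10, and in 6.91% of the 20653 genes with an annotated 3′ untranslated region.

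The deposited values were normalized gene counts rounded to whole numbers, and they summed to between 24891906 and 25733071 per library. Of the 55356 genes, 33730 had a value of 0 in all libraries alike, while 12483 genes had a mean value of 10 or more. The latter served as the background for all counts of genes. Since each condition had 1 library, no spread between cultures is known and no test was made. Each log2 ratio has a pseudocount of 1 added to both values and is given with a 95% counting interval, obtained by the exact Clopper-Pearson method from both values taken as read counts, which covers counting error only. In +*GFP* cells *Mapkapk2*, the gene of MK2, had a normalized count of 561 (UT) and 1585 (IL-1α), and in +*MK2* cells 38357 and 38141, so the reintroduced transcript was in the libraries labelled with it. That level was close to the one of *Gapdh* in the same cells (38926 and 38970). Without a wild-type library, it is not known how far it lies from the usual level of *Mapkapk2*. All 10 macrophage markers searched were detected, with summed normalized counts of 117998 to 132232. Of the 5 T cell markers, 2 were at 0 throughout and the sum was 24 to 37, mostly *Lck*, the B cell and neutrophil markers summed to at most 2 and 8, endothelial markers to at most 5, and all 5 fibroblast markers were at 0. The dendritic cell markers summed to 23 and 21 in +*GFP* and to 106 and 116 in +*MK2* cells, almost all of it *Zbtb46* (23, 18, 104 and 115), while 3 of the 5 markers were at 0 throughout. Macrophage markers were not equal between the lines either. *Mertk* was at 421 and 364 in +*GFP* against 1093 and 1168 in +*MK2* cells, and *Cd14* at 3652 and 8072 against 1962 and 2250. The part of such differences in the chemokine values was not tested. In these bulk libraries, fewer cells expressing a gene and less RNA per cell cannot be told apart.

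Several patterns were seen among the members, and they followed these groups of ligands only in part. *Ccl2* and *Ccl7* were lower in +*GFP* than in +*MK2* cells with or without IL-1α. *Ccl3* and *Ccl4* were slightly lower in untreated +*GFP* cells and by far the highest in +*GFP* cells after IL-1α. *Ccl6* and *Ccl9* were lower in +*GFP* cells under both treatments and *Ccl5* in untreated cells, *Ccl12* was near the limit of detection, and *Ccl17* and *Ccl22* were at 0. In all values below, the order of the libraries is +*GFP* UT, +*GFP* IL-1α, +*MK2* UT and +*MK2* IL-1α.

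**Figure D1:**
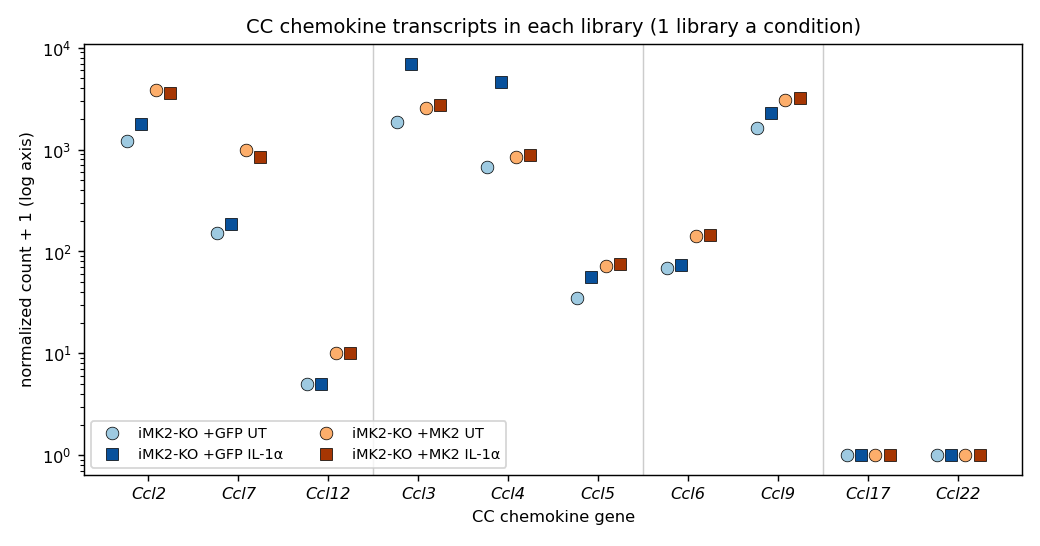
Normalized count plus 1 of each CC chemokine gene (log axis), with 1 point for each of the 4 libraries and grey lines between the groups of ligands. *Ccl3* (6994) and *Ccl4* (4570) stand out in i*MK2*-KO +*GFP* cells after IL-1α, *Ccl2* and *Ccl7* are lower in both +*GFP* libraries than in both +*MK2* libraries, and *Ccl17* and *Ccl22* lie at a normalized count of 0.

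The monocyte chemoattractants came first. *Ccl2*, the best known ligand of CCR2, had normalized counts of 1216, 1773, 3868 and 3599. Both +*GFP* libraries lay below both +*MK2* libraries. In untreated cells *Ccl2* was 3.18-fold lower in +*GFP* cells (log2 ratio -1.67, 95% counting interval -1.76 to -1.58), and after IL-1α 2.03-fold lower (log2 ratio -1.02, -1.10 to -0.94). *Ccl2* was 1.46-fold higher after IL-1α in +*GFP* cells (log2 ratio 0.54, 0.44 to 0.65). In +*MK2* cells it was slightly lower after IL-1α (log2 ratio -0.10, -0.17 to -0.04).

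*Ccl7*, which encodes a second ligand of CCR2 from the gene next to *Ccl2*, had normalized counts of 152, 184, 985 and 842. It showed the widest gap between the lines of all members in untreated cells. It was 6.44-fold lower in untreated +*GFP* cells (log2 ratio -2.69, -2.95 to -2.45) and 4.56-fold lower after IL-1α (log2 ratio -2.19, -2.43 to -1.96). The response to IL-1α was small in either line. The log2 ratio was 0.27 (-0.04 to 0.60) in +*GFP* cells, where the counting interval includes no change, and -0.23 (-0.36 to -0.09) in +*MK2* cells. *Ccl12*, the remaining CCR2 ligand of this group, had normalized counts of only 4, 4, 9 and 9. Its log2 ratio between the lines was -1 (-3.32 to 0.67) both untreated and after IL-1α, so a difference was not detectable at this depth.

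Among the inflammatory chemokines, *Ccl3* had normalized counts of 1872, 6994, 2558 and 2748. *Ccl3* encodes macrophage inflammatory protein 1α, an attractant of monocytes and T cells. The IL-1α-treated +*GFP* library stood above the other 3. *Ccl3* was 3.73-fold higher after IL-1α in +*GFP* cells (log2 ratio 1.90, 1.83 to 1.98), and in +*MK2* cells 1.07-fold higher (log2 ratio 0.10, 0.03 to 0.18). The sign of the difference between the lines therefore changed with treatment. In untreated cells *Ccl3* was 1.37-fold lower in +*GFP* cells (log2 ratio -0.45, -0.54 to -0.36), and after IL-1α it was 2.54-fold higher there (log2 ratio 1.35, 1.28 to 1.41).

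*Ccl4*, the gene of macrophage inflammatory protein 1β and the nearest neighbor of *Ccl3* among the members, had normalized counts of 671, 4570, 842 and 883. It followed the pattern of *Ccl3* with a larger response. *Ccl4* was 6.80-fold higher after IL-1α in +*GFP* cells (log2 ratio 2.77, 2.65 to 2.89), the largest response of any member. In +*MK2* cells the log2 ratio was 0.07 (-0.07 to 0.21), with a counting interval that includes no change. Between the lines *Ccl4* was 1.25-fold lower in untreated +*GFP* cells (log2 ratio -0.33, -0.48 to -0.18) and 5.17-fold higher after IL-1α (log2 ratio 2.37, 2.27 to 2.48).

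*Ccl5*, also known as RANTES, an attractant of T cells and monocytes, was rare, with normalized counts of 34, 55, 71 and 75. Its response to IL-1α was smaller than those of *Ccl3* and *Ccl4*. In untreated cells it was 2.06-fold lower in +*GFP* cells (log2 ratio -1.04, -1.70 to -0.45), and after IL-1α the log2 ratio was -0.44 (-0.98 to 0.07). The log2 ratio of IL-1α against UT was 0.68 (0.05 to 1.36) in +*GFP* and 0.08 (-0.41 to 0.57) in +*MK2* cells. At these counts the intervals are wide, and those of the IL-1α responses of both lines overlap.

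Both rodent CCR1 ligands were lower in +*GFP* cells. *Ccl9*, one of the 3 members with the highest mean count, had normalized counts of 1625, 2304, 3040 and 3185. It was 1.87-fold lower in untreated +*GFP* cells (log2 ratio -0.90, -0.99 to -0.82) and 1.38-fold lower after IL-1α (log2 ratio -0.47, -0.55 to -0.39). After IL-1α it was 1.42-fold higher in +*GFP* cells (log2 ratio 0.50, 0.41 to 0.60), while the log2 ratio in +*MK2* cells was 0.07 (-0.005 to 0.14). *Ccl6*, the gene beside *Ccl9*, had normalized counts of 68, 73, 142 and 144. The lines differed beyond counting error, and no difference between the treatments was detectable at this depth. *Ccl6* was 2.07-fold lower in untreated +*GFP* cells (log2 ratio -1.05, -1.50 to -0.64) and 1.96-fold lower after IL-1α (log2 ratio -0.97, -1.41 to -0.56). Its log2 ratio of IL-1α against UT was 0.10 (-0.39 to 0.60) in +*GFP* and 0.02 (-0.32 to 0.36) in +*MK2* cells.

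*Ccl17* and *Ccl22*, whose products attract CCR4-bearing T cells, were at 0 in all 4 libraries. A count of 0 allows up to 3 counts in a library, for counting error only.

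**Figure D2:**
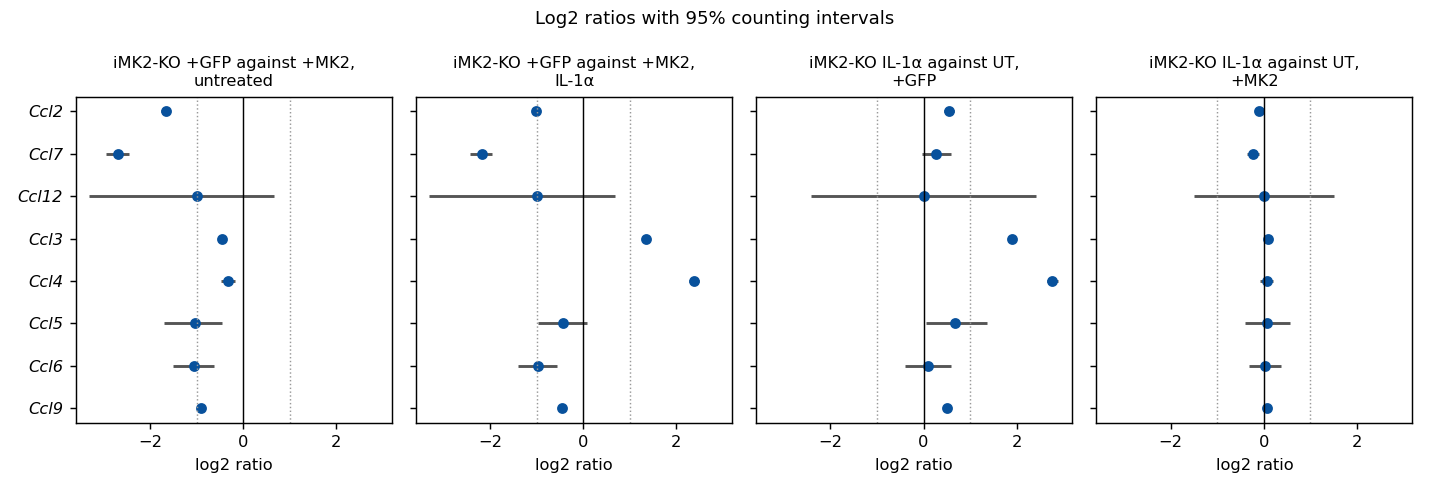
Log2 ratios of the 8 members with a value in the 4 comparisons (points), with their 95% counting intervals (bars, hidden behind the point where short), no change (solid line) and 2-fold (dotted lines). In untreated cells all 8 points lie below 0, from -2.69 (*Ccl7*) to -0.33 (*Ccl4*), and after IL-1α *Ccl3* (1.35) and *Ccl4* (2.37) lie above it.

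For untreated cells, the comparison of the lines describes how the members differed between +*GFP* and +*MK2* cells without a stimulus. The presence of MK2, its level and other differences between the lines cannot be told apart here. All 8 members with a value were lower in +*GFP* cells, and 5 of the 10 (*Ccl2*, *Ccl7*, *Ccl12*, *Ccl5* and *Ccl6*) were at least 2-fold lower, against 5.26% of the background genes. Among the 7 members that meet the minimum mean of the background, which *Ccl12*, *Ccl17* and *Ccl22* do not, 4 were at least 2-fold lower. None of the 10 was at least 2-fold higher, against 3.51% of the background. The counting interval lay below no change for 7 members (26.9% of the background) and above it for none (30.8%). The median log2 ratio of the 8 members was -1.02 and that of the background 0.02. Of the 5 members at least 2-fold lower, *Ccl5* and *Ccl6* lay just past 2-fold, and *Ccl12* rested on single-digit counts. *Ccl2* and *Ccl7* were the members whose whole interval lay beyond 2-fold.

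After IL-1α the members split. *Ccl3* and *Ccl4* were at least 2-fold higher in +*GFP* cells, as were 4.16% of the background genes, and *Ccl2*, *Ccl7* and *Ccl12* were at least 2-fold lower, as were 5.57%. Of the 7 members that meet the minimum mean, 2 were higher and 2 were lower by that measure. *Ccl6* lay at the edge of 2-fold and passed it under all 3 other scalings. The counting interval lay above no change for 2 members (33.7% of the background) and below it for 4 (*Ccl2*, *Ccl7*, *Ccl6* and *Ccl9*; 26.3% of the background). The median of the 8 members was -0.72 against 0.03 for the background.

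Within the +*GFP* line, IL-1α against UT gave higher values for 7 members and an equal value for *Ccl12*. *Ccl3* and *Ccl4* were at least 2-fold higher (2.25% of the background), and no member was at least 2-fold lower (1.59%). The counting interval lay above no change for 5 members, *Ccl4*, *Ccl3*, *Ccl5*, *Ccl2* and *Ccl9* (20.0% of the background), and below it for none (12.3%). The median was 0.52 against 0.01. Within the +*MK2* line no member was 2-fold higher (0.889% of the background) or lower (1.03%). The counting interval lay above no change for 1 member, *Ccl3* (11.4%), and below it for 2, *Ccl2* and *Ccl7* (8.23%), and the median was 0.04 against 0.008 for the background. The members' log2 ratios in +*MK2* cells lay between -0.23 and 0.10.

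The difference between the responses of both lines was taken as the log2 ratio in +*GFP* minus that in +*MK2* cells, with an exact conditional counting interval. It was 2.70 (2.52 to 2.88) for *Ccl4* and 1.80 (1.69 to 1.91) for *Ccl3*, the 2 members with an at least 2-fold larger response in +*GFP* cells (3.12% of the background). No member had an at least 2-fold smaller response (2.50%). *Ccl2* at 0.65 (0.52 to 0.77), *Ccl7* at 0.50 (0.16 to 0.85) and *Ccl9* at 0.44 (0.32 to 0.55) also differed beyond counting error, which makes 5 members above (15.4% of the background) and none below (10.8%). For *Ccl5* at 0.60 (-0.21 to 1.44), *Ccl6* at 0.08 (-0.53 to 0.69) and *Ccl12* at 0 (-2.86 to 2.86) no difference was detectable at this depth. Without a second culture of any condition, these differences were not tested beyond counting error.

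**Figure D3:**
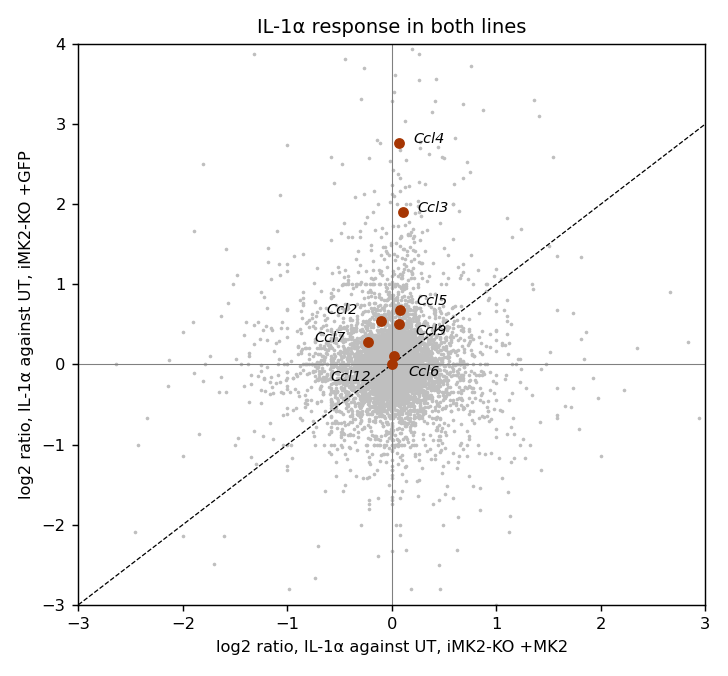
Log2 ratio of IL-1α against UT in i*MK2*-KO +*MK2* cells (x axis) and in i*MK2*-KO +*GFP* cells (y axis) for 12483 genes (grey, of which 60 lie beyond the axes) and for the 8 members with a value (red), with the line of equal responses (dashed). *Ccl4* (2.77 in +*GFP* and 0.07 in +*MK2* cells) and *Ccl3* (1.90 and 0.10) lie far above the dashed line, and *Ccl12* lies on it at 0.

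Per kilobase of mRNA, the order of the members differed between the lines. The length used was that of 1 annotated transcript per gene, the one with the longest coding sequence. It was 3006 bases for *Ccl9* and 813 for *Ccl2*. In untreated +*GFP* cells *Ccl3* was the most abundant member at 2444 normalized counts per kb, before *Ccl2* at 1496 and *Ccl4* at 1017. In untreated +*MK2* cells *Ccl2* led at 4758 per kb, before *Ccl3* at 3339, *Ccl4* at 1276, *Ccl7* at 1230 and *Ccl9* at 1011. *Ccl4* and *Ccl7* were close neighbors there, and their order rests on 1 library. After IL-1α, +*GFP* cells had 9131 per kb of *Ccl3* and 6924 per kb of *Ccl4*, with *Ccl2* next at 2181. Their *Ccl3* level then exceeded that of 98.3% and their *Ccl4* level that of 97.8% of the 10764 background genes with an annotated length, up from 93.2% and 81.4% in untreated cells. *Ccl9* (541 to 1060 per kb over the libraries), *Ccl5* (63.9 to 141) and *Ccl6*, at 47.2 per kb in untreated +*GFP* cells, kept this order in all 4 libraries. *Ccl12* was at 7.45 per kb in both +*GFP* and at 16.8 in both +*MK2* libraries.

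The make-up of the summed members changed accordingly. Over the 8 members with a value, the sum was 5805 per kb in untreated +*GFP* cells, 19393 after IL-1α, and 11863 and 11721 in +*MK2* cells. *Ccl3* and *Ccl4* together held 59.6% of that sum in untreated +*GFP* cells and 82.8% after IL-1α, and 38.9% and 42.0% in +*MK2* cells. *Ccl2* and *Ccl7* together held 29.0% and 12.4% in +*GFP* and 50.5% and 46.7% in +*MK2* cells. These shares depend on the transcript lengths used. By normalized counts not divided by length, *Ccl9* held 28.8% of the members' sum in untreated +*GFP* cells, above *Ccl2* at 21.6%. In untreated +*MK2* cells it held 26.4%, below *Ccl2* at 33.6%.

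**Figure D4:**
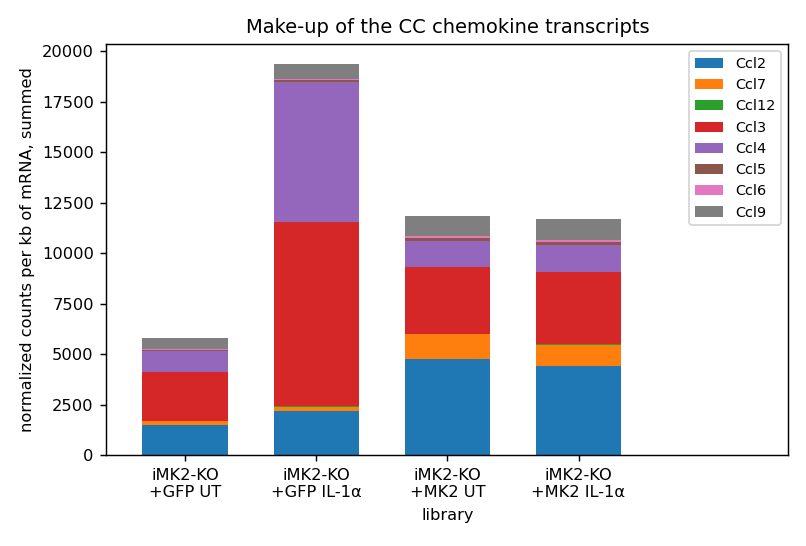
Normalized counts per kilobase of mRNA (y axis, from 0) of the 8 members with a value, stacked for each of the 4 libraries. The bar of i*MK2*-KO +*GFP* cells after IL-1α (19393) is made up mostly of *Ccl3* and *Ccl4*, and those of i*MK2*-KO +*MK2* cells (11863 and 11721) have *Ccl2* as the largest part.

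Ratios between members of 1 library do not depend on its scaling. The pairs were chosen after the values were seen and are given as a description. *Ccl4* reads per *Ccl3* read were 0.358, 0.653, 0.329 and 0.321, so the ratio was alike in 3 libraries and higher in +*GFP* cells after IL-1α. Its log2 change with IL-1α was 0.87 (0.73 to 1.01) in +*GFP* and -0.03 (-0.19 to 0.12) in +*MK2* cells. *Ccl7* reads per *Ccl2* read were 0.125, 0.104, 0.255 and 0.234, which split by line and not by treatment. In untreated cells the log2 difference of that ratio between the lines was -1.03 (-1.30 to -0.76), and with IL-1α it changed by -0.27 (-0.60 to 0.07) in +*GFP* and -0.12 (-0.27 to 0.03) in +*MK2* cells. *Ccl9* reads per *Ccl6* read were 23.9, 31.6, 21.4 and 22.1. After IL-1α the log2 difference of that ratio between the lines was 0.51 (0.09 to 0.95), and in the other 3 comparisons it was within counting error. *Ccl5* reads per *Ccl9* read were 0.0209, 0.0239, 0.0234 and 0.0235, and this ratio changed by less than its counting error in all 4 comparisons.

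The members lie in 3 stretches of the genome, given here by the positions in the table, which names no build. These positions differ from those of GRCm38 for all 10 members and are not to be mixed with the GRCm38 coordinates above. *Ccl2* (chr11:81926397-81928279), *Ccl7* (chr11:81936538-81938351) and *Ccl12* (chr11:81992671-81994226) lie within 67.8 kb, where *Ccl11*, which encodes an eosinophil attractant, was at 0 in all libraries. *Ccl5* (chr11:83416604-83421344), *Ccl9* (chr11:83463745-83469462), *Ccl6* (chr11:83478708-83483913), *Ccl3* (chr11:83538670-83540181) and *Ccl4* (chr11:83553410-83555509) lie within 139 kb. Within that stretch the IL-1α response of +*GFP* cells was largest at 1 end, at *Ccl3* and *Ccl4*, and the log2 ratio of *Ccl6*, between *Ccl9* and *Ccl3*, was 0.10 (-0.39 to 0.60). The other genes there, *E230016K23Rik*, which overlaps *Ccl6*, and *Rpl9-ps1*, had normalized counts of at most 3. *Ccl22* (chr8:95472218-95478327) and *Ccl17* (chr8:95537081-95538664) lie within 66.4 kb on chromosome 8, together with *Cx3cl1* and *Gnb1-ps3*, and all 4 were at 0.

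The chemokine genes are related in sequence, which can split reads between them. Coding sequences were 72.1% identical between *Ccl2* and *Ccl7*, 71.1% between *Ccl3* and *Ccl4*, 70.7% between *Ccl6* and *Ccl9* and 69.7% between *Ccl2* and *Ccl12*. No stretch of 38 bases, the read length in the labels, was shared between any of the 10 members. *Ccl9* shared 93 of its 3008 such stretches (3.09%) and *Ccl6* 11 of 1755 (0.627%) with transcripts of genes outside the group, and the other 8 members shared none.

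Among 10578 other genes whose mean value reached 50, the 3 closest to each member were found by the Euclidean distance between log2 values over the 4 libraries, each centred on its mean. With 4 points this is a description of likeness and says nothing of shared control. Closest to *Ccl3* was *Ikbke*, the gene of an IκB kinase relative (501, 1883, 696 and 749; distance 0.0216), followed by *Csf1*, the macrophage growth factor (1153, 4332, 1526 and 1823), and *Dusp2*, a MAP kinase phosphatase (177, 715, 282 and 319). *Ccl4* was less matched, with *Zc3h12c* (505, 3468, 536 and 647; distance 0.204), *Irf1* (324, 1885, 343 and 338) and *Icam1*, an adhesion molecule (1421, 8329, 1392 and 1527). The closest to *Ccl2* were *Zfta* (69, 93, 219 and 211; distance 0.114), *C3ar1*, the receptor of complement C3a (1983, 2638, 5268 and 5167), and *Gpr162* (159, 206, 457 and 496). *Ccl7* had *Rgl1* (79, 89, 448 and 442; distance 0.169), the endocytic adaptor gene *Dab2* (2138, 2207, 11274 and 10746) and *Mrc1*, the macrophage mannose receptor (273, 282, 1499 and 1488). *Ccl5* had *Sema4b* (175, 271, 350 and 367; distance 0.0437), *Gm11451* and *Gm8203*. *Ccl6* had *Tnfrsf21* (157, 167, 333 and 346; distance 0.0585), *Ppm1l* and *Msrb2*. *Ccl9* had *Gm8203* (42, 60, 81 and 81; distance 0.0479), *Ppp1r12b* and *Kyat3*. Such profiles were common for *Ccl6*, with 125 genes within a distance of 0.25, and rare for *Ccl4*, with 2.

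The remaining CC ligands added little to these libraries. Of the 11 others searched, 9 were at 0 throughout, among them *Ccl8*, *Ccl20* and *Ccl1*. *Ccl25*, which attracts thymocytes and gut T cells, had normalized counts of 116, 93, 217 and 177 and was lower in +*GFP* cells like most members (log2 ratio -0.90, -1.24 to -0.57, in untreated cells), and *Ccl24* had 3, 1, 7 and 7. Of 15 CC receptors and atypical receptors, 7 were at 0 throughout and 4 had a mean of at least 10. After IL-1α *Ccrl2* and *Ccr10* were at least 2-fold higher in +*GFP* than in +*MK2* cells (4.16% of the background). Both receptors of the monocyte chemoattractants and rodent ligands named above were rare. *Ccr1* was at 37, 33, 21 and 19, and *Ccr2* at 10, 7, 2 and 3. *Ccrl2*, an atypical receptor that presents chemerin and does not signal, was at 1, 72, 0 and 0.

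The factors that act on chemokine genes and mRNAs were taken as lists, and their values stand beside those of *Ccl3* and *Ccl4* without a test of a link. Of 17 transcription factors named for CC chemokine genes in textbooks, 5 were at least 2-fold higher and 1 lower after IL-1α in +*GFP* cells (2.25% and 1.59% of the background genes), and none was in +*MK2* cells (0.889% and 1.03%). The median log2 ratio of the list was 0.46 in +*GFP* and 0.10 in +*MK2* cells. The NF-κB subunit genes *Relb* (99, 706, 86 and 131), *Nfkb2* (541, 1787, 541 and 545) and *Rel* (1016, 2338, 780 and 900), *Irf1* and the AP-1 gene *Junb* (1685, 5795, 1651 and 1855) were the 5 higher. *Fos* (143, 67, 218 and 185) was the 1 lower, and *Irf4* (116, 99, 43 and 51) was at least 2-fold higher in untreated +*GFP* than +*MK2* cells. Of 7 mRNA stability factors, 2 were at least 2-fold higher after IL-1α in +*GFP* cells (2.25% of the background) and 1 in +*MK2* cells (0.889%). *Zfp36*, which encodes tristetraprolin, had normalized counts of 641, 2569, 788 and 814, an order of libraries like that of *Ccl3*. *Zc3h12a*, the gene of the RNase regnase-1, had 160, 1590, 104 and 268, and its log2 ratio after IL-1α was 3.30 (3.08 to 3.56) in +*GFP* and 1.36 (1.03 to 1.71) in +*MK2* cells. *Zfp36l2* (3729, 2383, 4238 and 4321) went the other way in +*GFP* cells, by less than 2-fold (log2 ratio -0.65, -0.72 to -0.57). In +*MK2* cells its log2 ratio was 0.03 (-0.03 to 0.09). Of 8 genes for chemokine binding and processing, *Sdc4*, a heparan sulfate proteoglycan that holds chemokines on the cell surface, was at least 2-fold higher after IL-1α in +*GFP* cells (2.25% of the background). Its normalized counts were 913, 3036, 2568 and 2670. Like *Ccl2*, *Sdc4* was lower in untreated +*GFP* than in untreated +*MK2* cells. After IL-1α it was slightly higher in +*GFP* cells (log2 ratio 0.19, 0.11 to 0.26).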

How the data were processed

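RNA was sequenced from 4 libraries, 1 for each condition. Per the labels, libraries were made from poly(A) RNA with a stranded kit and read with 38 bases from each end, whereas the study's methods state ribo-depletion and single reads. The submitters' processing notes name DESeq2 and GRCm38 and the column names point to salmon, with no version given in the sources used here. The deposited values are a score: gene counts that the authors normalized by library and rounded to whole numbers, used here as deposited, with no count model. The positions in the table match those of GENCODE M21 for 1494 of 52080 shared gene IDs, so the build behind them is not known.

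Log2 ratios (pseudocount 1), Clopper-Pearson intervals and exact conditional intervals of a ratio of ratios, all at 95%, were computed with Python 3.11.15, numpy 2.4.6, pandas 2.3.3 and scipy 1.17.1. The code was checked on simulated data. The deposited values were taken as read counts, which is an assumption, since they are normalized and the factors used are not known here. Each library was planned as about 6.3% of a run, which does not give these factors. The width of all counting intervals rests on this assumption. A member was counted as differing at 2-fold. Lengths, 3′ untranslated regions and coding identity (in place of protein identity) came from GENCODE M21, with lengths matched for 86.2% of the background genes, and promoters from RefSeq. The members and lists were chosen with earlier results of these data known. Named were all members, genes of the lists that reached 50 in any library and 2-fold in any comparison, the 3 nearest genes of each member with a value of at least 50, and *Mapkapk2*. Genes named beside these (*Ccl25*, *Ccl24*, *Ccr1*, *Ccr2*, *Ccr10*, *Zfp36l2*, *Lck*, *Zbtb46* and the neighbors in the genome) were chosen after their values were seen. Alternatives were other pseudocounts, scalings, call rules and minimum values.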

Additional observations from a re-analysis of the deposited data

Results flagged for a closer look

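*Ccl2* and *Ccl7* moved in opposite directions with IL-1α in the 2 lines, and this difference was not tested, since each condition had 1 library. The log2 ratio of IL-1α against UT for *Ccl2* was 0.54 with the *GFP* vector and -0.10 with *MK2*, and that for *Ccl7* was 0.27 and -0.23. The counting interval of *Ccl7* with the *GFP* vector (-0.04 to 0.60) includes no change.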

How the results depend on the processing

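No paired analysis was possible because each condition had 1 library and the labels give no replicate numbers, and for the same reason no replicate could be left out. Of the counts of members, that at least 2-fold lower in untreated +*GFP* cells moved from 5 to 3 with a pseudocount of 5, and to 2 when the whole counting interval had to lie beyond 2-fold. Under the latter rule the count lower after IL-1α moved from 3 to 1. That count was 4 under all 3 scalings, where *Ccl6* passed 2-fold (log2 ratio -1.0002 with trimmed means, -1.01 with totals and -1.07 with *Gapdh*), and 2 with a pseudocount of 5 or a minimum mean of 10. The count lower in untreated cells was 4 with that minimum. With a counting interval that excludes no change as the rule, 5 members in place of 2 were higher after IL-1α in +*GFP* cells, 1 was higher and 2 were lower in place of none in +*MK2* cells, and 5 in place of 2 had a larger response in +*GFP* cells. The log2 ratios of single members kept their direction under pseudocounts of 0.5 and 5 and under scaling by trimmed means, totals or *Gapdh*. Scaling by *Gapdh* moved all genes by -0.10 on the log2 scale between the lines after IL-1α, which gave -1.12 for *Ccl2*, 1.25 for *Ccl3* and -0.57 for *Ccl9*. With the values divided by 0.8 taken as the counts, the interval of *Ccl9* for IL-1α in +*MK2* cells (0.003 to 0.13) no longer included no change, and no other member changed sides. Depth limits *Ccl12* and *Ccl5* most, and no interval here covers variation between cultures.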
